A study of Mus musculus with 6 samples.

Results

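The genes described here encode the enzymes and transporters that take up glucose, break it down to lactate, export the lactate, and run the pentose phosphate branch. They were chosen by gene symbol from a fixed list of 33, and all 33 are among the 26771 genes listed in at least 1 of the 6 libraries. The libraries measured messenger RNA of γδT17 cells, the interleukin-17 producing kind of γδ T cell, from spleens of C57BL/6 mice that carry TCRβ-/-, so both groups come from animals without the β chain that αβ T cells need. The Initial group (3 libraries, mice A, B and C) consisted of cells sorted out of splenocytes without culture, and the sources used here do not give the gate. The Induced group (3 libraries, mice A, B and C) was grown from splenocytes in a culture built on IL-1β and IL-23, harvested on day 8 and purified with a Pan T cell isolation kit, and per the labels over 90% of these cells expressed IL-17A. The ages of the mice are not given in the sources used here, and sorting and culture each belong to 1 group only, so state and handling cannot be told apart.

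Glycolysis splits glucose into pyruvate and yields ATP without oxygen. Pyruvate is either reduced to lactate, which leaves the cell through monocarboxylate transporters, or enters the mitochondria through pyruvate dehydrogenase. The pentose phosphate pathway branches off at glucose 6-phosphate and supplies NADPH and ribose for nucleotides. T cells that are activated and divide are known to raise glucose uptake and lactate production, and several steps have isoforms encoded by separate genes, whose balance differs between tissues and between resting and dividing cells.

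Values are FPKM, fragment counts scaled by transcript length and library depth, so levels can be set beside each other between genes. Log2 changes are Induced minus Initial on the scale of log2(FPKM + 1), with a standard error (SE), and adjusted p-values are from limma with Benjamini-Hochberg adjustment over the 11265 genes that reached an FPKM of 1 in 3 or more libraries. A gene was called at an adjusted p under 0.05. Means carry the SD over 3 libraries, and the scale understates changes of genes with a low FPKM. Depth was estimated from the step between low values at about 19200000 to 22700000 fragments in the Initial and 21400000 to 22600000 in the Induced libraries. The γδ chain gene Trdc stood at 327 ± 7.24 and 335 ± 31.7 FPKM, so γδ T cells as a class were detected in both groups, though Trdc does not mark the labelled γδT17 type. The 10 T cell markers summed to 3196 to 3491 FPKM in Initial and 2223 to 2374 FPKM in Induced libraries, with 4 called lower (Cd3d, Cd3e, Lck and Cd2), 1 higher (Thy1) and 5 that did not pass. Several of the other cell types looked for had markers at lower summed levels in the Induced than in the Initial libraries. For the 6 plasma cell markers the sums were 228 to 272 FPKM in Initial and 10.45 to 16.5 FPKM in Induced libraries. Of the 5 tested, 3 were called lower and Prdm1 higher. For the 5 αβ T cell markers they were 177 to 223 against 60.8 to 132 FPKM. Of the 4 tested, Trac and Cd4 were called lower, while Cd8a and Cd8b1 did not pass and had overlapping groups. Cd4 passed the filter on low values through the Initial libraries alone, and Foxp3 was not tested. The 11 red pulp macrophage markers summed to 557 to 983 FPKM in Initial and 4.58 to 5.26 FPKM in Induced libraries, 8 listed red cell genes to 1221 to 1746 against 1.17 to 1.64 FPKM, and the 11 B cell markers to 1535 to 1785 against 146 to 236 FPKM. The sums of the 8 dendritic cell markers (82.3 to 95.7 against 88.7 to 97.7 FPKM) and the 6 NK cell markers (175 to 206 against 49.3 to 203 FPKM) overlapped between the groups. Most of the dendritic sum was Bst2 (69.4 ± 8.96 and 89.2 ± 3.78 FPKM). Of 7 dendritic markers tested, 4 were called lower, 2 higher and 1 did not pass, and those 4 passed the filter on low values through the Initial libraries alone. Of 4 NK markers tested, Ncr1 and Klrb1c were called lower and 2 did not pass.

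Most of the tested genes rose, while the transporter gene Slc2a1 did not pass the test and the minor isoforms Hk3, Pfkfb4, Eno3 and Ldhb fell. Of 31 genes tested, 21 were higher in Induced cells, 4 were lower and 6 did not pass, while over all genes tested 37.3% were higher, 33.1% lower and 70.4% changed in either direction. The median change of the tested genes was 0.85 on the log2 scale, against 0.03 over all genes tested. Rises of at least 2-fold on the log2(FPKM + 1) scale were called for 14 of them, where the background is 12.0%, and falls of at least 2-fold on that scale for 3 (Hk3, Eno3 and Ldhb), where it is 13.2%. Pfkfb4, at 2.57-fold lower by its means, missed that mark on the log2 scale. The groups did not overlap for 25 of the 31, or 80.6%, which is near the 75.4% over all genes. Eno2, a neuronal enolase, and Rpia, ribose 5-phosphate isomerase, stayed under the filter on low values in all 6 libraries and were not tested. Hk3 passed the filter through the Initial libraries alone, so the count of falls holds a gene that had to differ, and Aldoc reached 1 FPKM in only 4 libraries, all 3 Induced ones among them. Summed over the 33 genes, the levels took 0.632 ± 0.0188% of all FPKM in Initial and 1.89 ± 0.0511% in Induced libraries. The 21 genes from the hexokinases to the lactate dehydrogenases made up 0.522 ± 0.0148% and 1.72 ± 0.0496%. The 7 pentose phosphate genes made up 0.0808 ± 0.00410% and 0.106 ± 0.00212%. These sums leave out near-identical copies of the genes, which are described below.

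**Figure D1:**
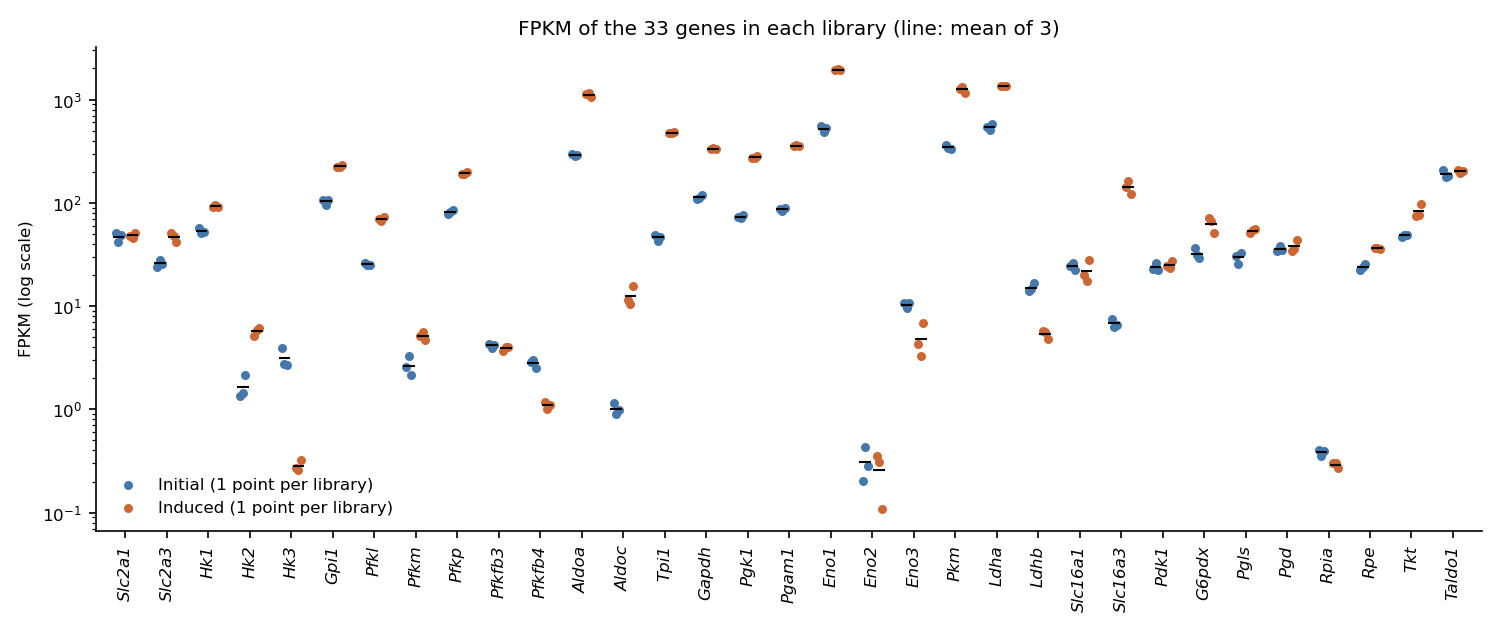
FPKM of each of the 33 genes on a log axis, with 1 point per library, Initial in blue and Induced in orange, and a black line at the mean of 3. From Aldoa to Ldha the Induced points of the abundant genes lie well above the Initial points, while those of Slc2a1, Pfkfb3, Pdk1, Pgd and Taldo1 share a range, and Hk3, Pfkfb4, Eno3 and Ldhb lie lower in Induced libraries.

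Among the glucose transporter genes, Slc2a3 rose and Slc2a1 did not pass the test. Slc2a1 (GLUT1, the transporter of most dividing cells) stood at 50.7, 41.5 and 48.5 FPKM in Initial libraries A, B and C and at 47.7, 45.7 and 51.5 FPKM in the Induced libraries of the same mice. The groups overlapped, and the log2 change was 0.05 (SE 0.09, 95% interval -0.16 to 0.25, adjusted p = 0.665). Slc2a3 (GLUT3, a transporter of high affinity) had 24.1, 28.0 and 25.6 FPKM in Initial and 50.7, 47.7 and 41.4 FPKM in Induced libraries. All Induced libraries were above all Initial ones, a log2 change of 0.82 (SE 0.09, adjusted p = 0.000108). Slc2a1 supplied 64.3 ± 4.15% of the FPKM of the 2 genes in Initial and 50.9 ± 3.93% in Induced libraries.

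Hexokinase, which traps glucose as glucose 6-phosphate, was nearly all Hk1. Hk1 rose from 56.8, 50.5 and 52.7 to 91.8, 95.4 and 91.4 FPKM (log2 change 0.79, SE 0.07, adjusted p = 1.81e-05), and held 91.8 ± 0.456% of hexokinase FPKM in Initial and 93.9 ± 0.529% in Induced libraries. Hk2, the isoform known for its induction in dividing and hypoxic cells, rose from 1.36, 1.43 and 2.14 to 5.10, 5.93 and 6.11 FPKM. Its mean was 3.47-fold higher (log2 change 1.35, SE 0.14, adjusted p = 6.18e-05), yet it supplied only 5.78 ± 0.505% of hexokinase FPKM in Induced cells. Hk3, an isoform of myeloid cells, had 3.90, 2.75 and 2.69 FPKM in Initial and 0.269, 0.260 and 0.322 FPKM in Induced libraries, an 11-fold lower mean (log2 change -1.67, SE 0.14, adjusted p = 1.66e-05). The fall of Hk3 ran beside that of the monocyte genes Lyz2 (184 ± 83.1 to 1.75 ± 0.348 FPKM) and Csf1r (56.6 ± 17.7 to 0.0783 ± 0.0372 FPKM). The 11 monocyte and neutrophil markers summed to 675 to 938 FPKM in Initial and 122 to 1085 FPKM in Induced libraries, the latter mostly Ly6c2, which did not pass. The part of such cells in the fall of Hk3 was not tested. In such bulk samples, fewer cells of a type and less RNA per cell cannot be told apart.

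The next steps rose together. Gpi1, glucose 6-phosphate isomerase, went from 108, 96.0 and 107 to 224, 220.2 and 229.9 FPKM (log2 change 1.11, SE 0.07, adjusted p = 3.36e-06). Phosphofructokinase, the committed step, is built from a platelet, a liver and a muscle type subunit, and Pfkp was the most abundant of these in every library. Pfkp rose from 77.8, 80.9 and 84.9 to 190.6, 190.1 and 197 FPKM (log2 change 1.24, SE 0.06, adjusted p = 1.21e-06), and Pfkl from 26.2, 24.9 and 24.9 to 69.1, 66.1 and 72.2 FPKM (1.41, SE 0.06, adjusted p = 7.28e-07). Pfkm had 2.66 ± 0.565 and 5.16 ± 0.497 FPKM (0.76, SE 0.14, adjusted p = 0.00137). The shares of the 3 subunits therefore moved little: Pfkp held 74.3 ± 1.45% in Initial and 72.2 ± 0.360% in Induced libraries, and Pfkl 23.2 ± 1.24% and 25.9 ± 0.564%. Pfkp shares 748 exonic bases with Pitrm1 on the other strand, at a mean of 23.7 FPKM over all libraries, and the sources used here do not say whether strand was used in counting. Pfkm shares 18 exonic bases with the more abundant Senp1 (17 FPKM).

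Pfkfb3 and Pfkfb4 encode bifunctional enzymes that make and remove fructose 2,6-bisphosphate, an activator of phosphofructokinase, and neither was called higher. Their relative Pfkfb1, singled out after its values were seen, rose from 0.872 ± 0.266 to 2.26 ± 0.164 FPKM (adjusted p = 0.000871). Another relative, Pfkfb2, lay lower in Induced libraries, at 1.21 ± 0.132 and 0.792 ± 0.219 FPKM, and did not pass (adjusted p = 0.0566). Pfkfb3 stood at 4.33, 3.93 and 4.21 FPKM in Initial and 3.66, 4.00 and 4.04 FPKM in Induced libraries, with overlapping groups (log2 change -0.07, SE 0.09, 95% interval -0.29 to 0.15, adjusted p = 0.509). Pfkfb4 fell from 2.90, 3.02 and 2.52 to 1.18, 1.02 and 1.09 FPKM (log2 change -0.86, SE 0.11, adjusted p = 0.000169). Pfkfb3 thus made up 59.7 ± 3.02% of the summed FPKM of Pfkfb3 and Pfkfb4 in Initial and 78.1 ± 2.15% in Induced libraries.

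From aldolase to pyruvate kinase, the most abundant gene of every step rose. Aldoa, the main aldolase, rose from 298, 285 and 294 to 1123, 1165 and 1064 FPKM (log2 change 1.93, SE 0.06, adjusted p = 1.73e-07). Aldoc, a brain type aldolase, rose from 1.15, 0.902 and 0.995 to 11.4, 10.5 and 15.5 FPKM, a 12.3-fold higher mean (log2 change 2.72, SE 0.15, adjusted p = 1.9e-06). Aldoc still supplied only 1.11 ± 0.285% of aldolase FPKM in Induced libraries, against 0.346 ± 0.0348% in Initial ones.

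Tpi1, triosephosphate isomerase (chr6:124810586-124814296 in GRCm38), went from 49.0, 42.6 and 47.2 to 475, 479 and 483 FPKM, and ranked 111 by size of rise among the 11265 genes. Its mean was 10.4-fold higher (log2 change 3.35, SE 0.07, adjusted p = 4e-08), and it shares 34 exonic bases with Spsb2 on the other strand, at 4.64 FPKM. Tpi1 lay under Pgk1 and Pgam1 in every Initial library and above both in every Induced library. Pgk1, phosphoglycerate kinase, rose from 72.1, 71.9 and 75.4 to 270.5, 274 and 287 FPKM (log2 change 1.91, SE 0.06, adjusted p = 1.36e-07). Pgam1, phosphoglycerate mutase, rose from 88.0, 83.0 and 89.3 to 358, 359 and 359 FPKM (log2 change 2.04, SE 0.06, adjusted p = 1.04e-07).

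Gapdh has many near-identical copies in the mouse genome, most of them listed in the files. Gapdh, the glyceraldehyde 3-phosphate dehydrogenase that is often taken as a housekeeping control, had 109.6, 110.4 and 118 FPKM in Initial and 331, 338 and 333 FPKM in Induced libraries (log2 change 1.56, SE 0.06, adjusted p = 3.53e-07), a 2.96-fold higher mean. When its longest coding transcript was aligned with all annotated transcripts, 77 other genes matched at 95% identity or more over at least 200 bases, and 70 of these are listed in the files. They summed to 416, 379 and 430 FPKM in Initial and 1254, 1301 and 1231 FPKM in Induced libraries, or 78.4% and 79.1% of the total with Gapdh. The most abundant copy was Gm7336, with a mean of 291 FPKM over all libraries. Gapdh with its copies was 3.06-fold higher in Induced cells, close to the 2.96-fold of Gapdh alone, so the copies bear on its level more than on its change. The same search found 4 matching genes for Pgk1 (4.88 and 4.90% of the summed FPKM in Initial and Induced), 1 for Pgam1 (2.99 and 2.53%), 3 for Eno1 (2.35 and 2.32%) and 1 for Pkm (0.313 and 0.326%). It also found 1 for Gpi1 (0.107 and 0.121%), 1 for Tpi1 (0 and 0.0866%) and 4 for Ldha (0.00346 and 0%). The 1 match of Ldhb is not listed in the files. How the reads were split between such copies is uncertain.

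**Figure D2:**
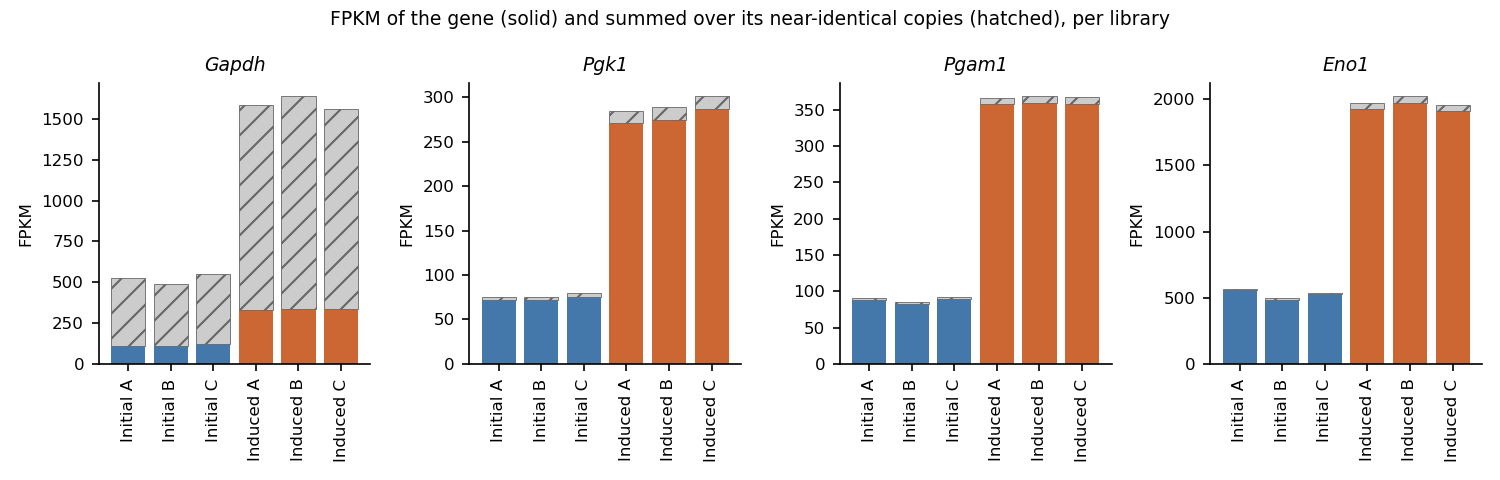
FPKM of Gapdh, Pgk1, Pgam1 and Eno1 per library (solid bars, Initial in blue and Induced in orange) with the summed FPKM of their near-identical copies stacked on top (hatched). The hatched part is 78.4 and 79.1% of the total for Gapdh and under 5% for the others.

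Eno1, the enolase of most tissues, rose from 555, 486 and 526 to 1929, 1975 and 1912 FPKM (log2 change 1.89, SE 0.07, adjusted p = 2.92e-07). Eno3, the muscle enolase, moved the other way, from 10.6, 9.57 and 10.7 to 4.32, 3.28 and 6.79 FPKM (log2 change -1.01, SE 0.20, adjusted p = 0.0027). Eno2 lay between 0.109 and 0.433 FPKM in all libraries. Eno1 held 98.0 ± 0.0700% of enolase FPKM in Initial and 99.7 ± 0.0905% in Induced libraries. Pkm, the pyruvate kinase outside liver and red cells, rose from 364, 336 and 333 to 1276, 1330 and 1155 FPKM (log2 change 1.86, SE 0.08, adjusted p = 4.77e-07). Its M1 and M2 splice forms are not separated in gene-level values.

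**Figure D3:**
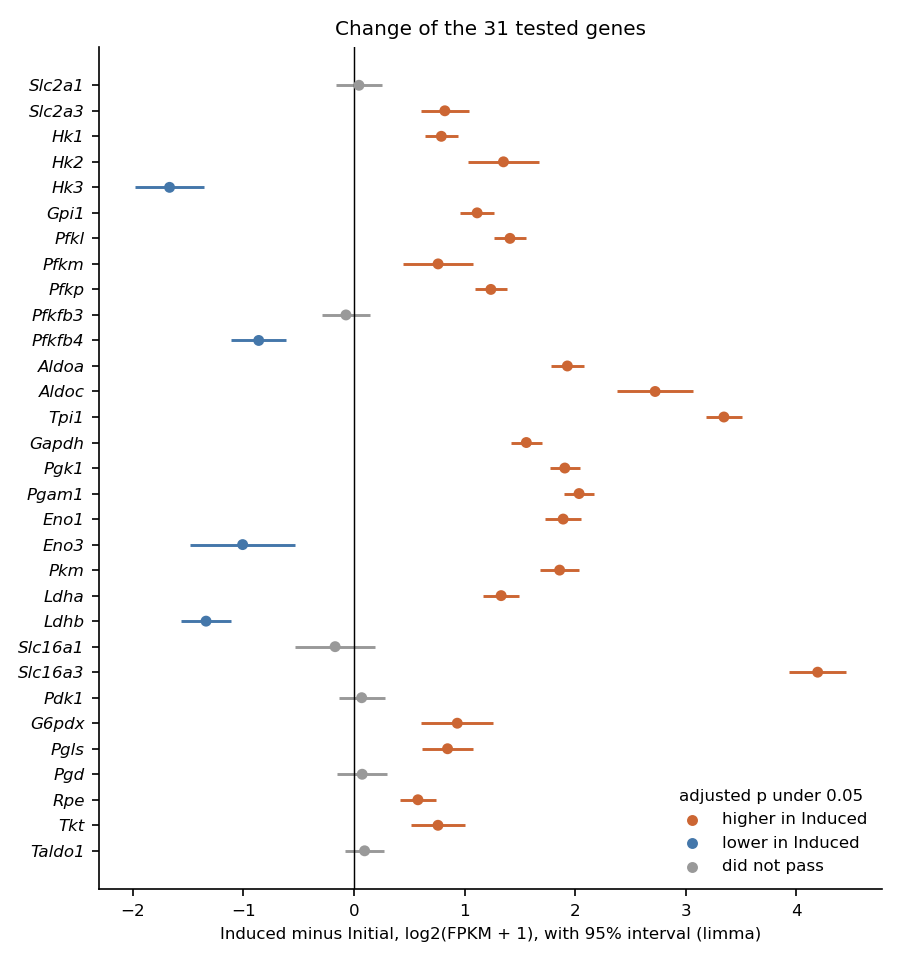
Change of the 31 tested genes, Induced minus Initial on the log2(FPKM + 1) scale, with the 95% interval from limma, orange for genes called higher, blue for genes called lower and grey for genes that did not pass. Slc16a3 (4.19) and Tpi1 (3.35) lie farthest to the right and Hk3 (-1.67) and Ldhb (-1.34) farthest to the left.

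Lactate dehydrogenase shifted further to its A subunit, the form linked to lactate production. Ldha rose from 538, 503 and 578 to 1355, 1366 and 1350.0 FPKM (log2 change 1.33, SE 0.07, adjusted p = 1.66e-06). Ldhb, the heart type subunit, fell from 14.0, 14.8 and 16.6 to 5.71, 5.60 and 4.81 FPKM (log2 change -1.34, SE 0.10, adjusted p = 1e-05). No library of either gene overlapped the other group. Ldhb made up 2.73 ± 0.175% of lactate dehydrogenase FPKM in Initial and 0.394 ± 0.0345% in Induced libraries. Ranked by their own values alone, Ldha and Eno1 had overlapping levels in the Initial group and led the list. In the Induced group Eno1 stood above Ldha in every library, Ldha above Pkm, and the libraries of Pkm and Aldoa overlapped. This order leaves out near-identical copies. Those of Gapdh summed to 416, 379 and 430 FPKM in Initial and 1254, 1301 and 1231 FPKM in Induced libraries, so the place of Gapdh is uncertain.

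Lactate export showed the largest isoform switch. Slc16a3 (MCT4, an exporter typical of highly glycolytic cells, at chr11:120948480-120960868 in GRCm38) rose from 7.54, 6.34 and 6.51 to 143, 162 and 122 FPKM, a 20.9-fold higher mean (log2 change 4.19, SE 0.11, adjusted p = 7.61e-08), and ranked 21 by size of rise among the 11265 genes. Slc16a1 (MCT1, which carries lactate in either direction) had 24.5, 26.2 and 22.1 FPKM in Initial and 20.2, 17.5 and 27.7 FPKM in Induced libraries. Its groups overlapped (log2 change -0.17, SE 0.16, 95% interval -0.53 to 0.19, adjusted p = 0.351), with Induced library C the highest of all 6. Without Induced library C, Slc16a1 was called lower (log2 change -0.35, adjusted p = 0.0154). Slc16a3 held 23.5, 19.5 and 22.7% of the FPKM of both transporters in Initial and 87.6, 90.2 and 81.5% in Induced libraries. Bsg, the chaperone that brings both transporters to the membrane, was singled out after its values were seen, and rose from 138 ± 7.34 to 259.9 ± 11.1 FPKM (log2 change 0.91, adjusted p = 1.02e-05).

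**Figure D4:**
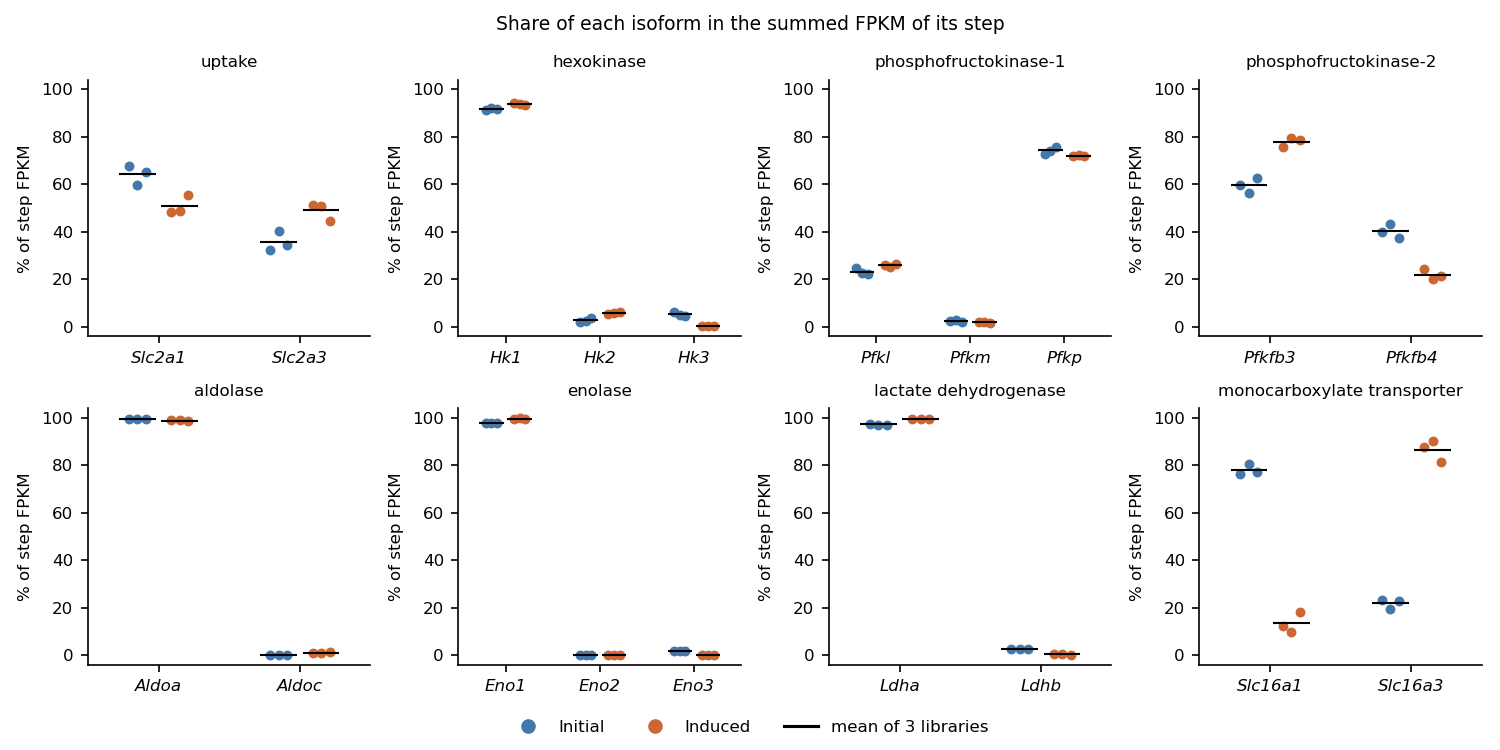
Share of each isoform in the summed FPKM of its step, in percent, with 1 point per library, Initial in blue and Induced in orange, and a line at the mean of 3. Slc16a3 went from a mean of 21.9 to 86.5% of the monocarboxylate transporter step, and all other steps but glucose uptake kept their major isoform in every library.

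Isoforms of the same step were compared as the log2 ratio of their FPKM + 1 in each library, for 11 pairs. The ratios of the groups did not overlap for any of the 11 pairs. Single genes did not overlap between the groups for 75.4% of all genes tested, and no such share was computed for ratios. With 3 libraries against 3, a two-sided exact permutation test cannot give a p under 0.1, and it gave p = 0.1 for each pair, also after Benjamini-Hochberg adjustment over the 11. The ratio rose by 4.36 for Slc16a3 to Slc16a1, by 2.90 for Eno1 to Eno3 and by 2.67 for Ldha to Ldhb. It dropped by 2.46 for Hk3 to Hk1, by 0.78 for Slc2a1 to Slc2a3 and by 0.17 for Pfkp to Pfkl. The ratios that involve a gene near 1 FPKM depend on the number added before the log. Hk2 to Hk1 rose by 0.56 and Aldoa to Aldoc dropped by 0.79, and with 5 added in place of 1 both turned, to -0.06 and 0.39. With 0.1 added they were 0.96 and -1.55.

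Entry of pyruvate into the mitochondria gave mixed values. Pdk1, a kinase that switches pyruvate dehydrogenase off, had 23.1, 26 and 22.4 FPKM in Initial and 24.5, 23.2 and 27.6 FPKM in Induced libraries, with overlapping groups (log2 change 0.07, SE 0.09, 95% interval -0.14 to 0.28, adjusted p = 0.506). Its relatives, picked out after their values were seen, parted. Pdk3 rose (27.6 ± 1.445 to 46.7 ± 0.824 FPKM, adjusted p = 2.39e-05), Pdk2 fell (11.5 ± 0.686 to 7.77 ± 1.34 FPKM, adjusted p = 0.0053) and Pdk4 was not tested. In a list of 21 other genes of lactate and pyruvate handling, 16 were tested, 8 rose, 4 fell and 4 did not pass, with a median change of 0.23. Over all genes tested 37.3% were higher and 33.1% lower. Pdhx, a structural component of the pyruvate dehydrogenase complex, had the largest rise (5.74 ± 0.543 to 14.1 ± 0.409 FPKM), and Slc16a6, another member of the monocarboxylate transporter family, the largest fall (37.2 ± 3.97 to 19.8 ± 2.45 FPKM).

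In the oxidative branch of the pentose phosphate pathway the first enzymes rose and the last did not pass. G6pdx, glucose 6-phosphate dehydrogenase, went from 36.3, 31.5 and 28.9 to 71.5, 66.7 and 50.5 FPKM (log2 change 0.93, SE 0.14, adjusted p = 0.000565). It shares 418 exonic bases with Ikbkg on the other strand (15.2 FPKM). Pgls, the lactonase, rose from 29.6 ± 3.77 to 53.8 ± 2.64 FPKM (0.85, SE 0.10, adjusted p = 0.000115), and shares 776 exonic bases with Fam129c on the same strand (2.25 FPKM). Pgd, 6-phosphogluconate dehydrogenase, had 34.4, 38.1 and 34.9 FPKM in Initial and 34.4, 36.0 and 43.4 FPKM in Induced libraries (0.07, SE 0.10, 95% interval -0.15 to 0.30, adjusted p = 0.509). Its groups overlapped.

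In the non-oxidative branch, which exchanges sugars with glycolysis, Taldo1 was the most abundant gene. Taldo1, transaldolase, had 206, 179 and 182 FPKM in Initial and 206.5, 193 and 205 FPKM in Induced libraries, so the groups overlapped (log2 change 0.10, SE 0.07, 95% interval -0.08 to 0.27, adjusted p = 0.277). Tkt, transketolase, rose from 46.8, 49.1 and 49.0 to 74.6, 76.3 and 98.3 FPKM (0.76, SE 0.11, adjusted p = 0.000348). Rpe, ribulose 5-phosphate epimerase, rose from 24.0 ± 1.69 to 36.3 ± 0.807 FPKM (0.58, SE 0.07, adjusted p = 0.000168), and shares 558 exonic bases with Kansl1l on the other strand (4.47 FPKM). Rpia lay between 0.269 and 0.406 FPKM. Of 12 other genes around this pathway 9 were tested. Of these, 4 rose, 4 fell and 1 did not pass, where the background was 37.3% higher and 33.1% lower. The largest rise was that of H6pd, the dehydrogenase of the endoplasmic reticulum (5.19 ± 0.258 to 14.7 ± 1.55 FPKM), and the largest fall that of Shpk, sedoheptulokinase (4.34 ± 0.595 to 3.15 ± 0.428 FPKM, adjusted p = 0.0324). The call of Shpk was lost when no gene was filtered out (adjusted p = 0.058), after quantile normalization (0.0805), with scaling to T cell receptor complex genes (0.273), and on leaving out 1 library, namely Initial B (0.104), Initial C (0.0601), Induced A (0.117) or Induced B (0.0745).

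Other isozymes of glycolysis were mostly absent or low. Of 25 such genes 23 were listed and 7 tested, of which 4 rose, 1 fell and 2 did not pass. Among all genes tested the shares were 37.3% higher and 33.1% lower. Eno1b, a near copy of Eno1, rose most (5.00 ± 0.452 to 16.6 ± 0.705 FPKM). Eno1 itself stood at 522 ± 34.6 and 1938 ± 32.6 FPKM, and how reads were split between Eno1 and Eno1b is uncertain. Bpgm, the bisphosphoglycerate mutase known from red cells, was the gene that fell (21.5 ± 0.798 to 14.2 ± 2.18 FPKM). Red cell markers stood at far higher summed levels in the Initial libraries, and the part of such cells in the fall of Bpgm was not tested. Among 24 regulators of the pathway 21 were tested, 5 rose, 6 fell and 10 did not pass, with a median change of 0.09. Both shares lay under the 37.3% higher and 33.1% lower of all genes tested. Mycn, a relative of the growth regulator Myc, rose most (3.03 ± 0.711 to 21.4 ± 3.87 FPKM). Txnip, which restrains glucose uptake, fell most (479.5 ± 45.3 to 112 ± 11.9 FPKM). Hif1a and Myc were picked out after their values were seen. Hif1a, the hypoxia-inducible factor subunit, rose from 56.6 ± 2.88 to 157 ± 14.8 FPKM (log2 change 1.45, adjusted p = 2.71e-06), and Myc, at 96.5 ± 16.3 and 120.4 ± 41.2 FPKM, did not pass (adjusted p = 0.338).

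The promoters of the listed genes were read for ACGTG, the core of the site that hypoxia-inducible factors bind. It also lies inside the E-box CACGTG bound by Myc and its partners. The window was the 250 bases before the 5′-most start that RefSeq gives (build GRCm38.p6), and 32 of the 33 genes had one. ACGTG on either strand occurred in 10 of the 32, or 31.2%, against 16.5% of all 27025 promoters, and CACGTG in 3, or 9.38%, against 6.04%. It was found in 5 of the 14 genes that rose at least 2-fold on the log2(FPKM + 1) scale and in 5 of the other 18. Shown are the 4 windows among those 14 that hold the motif and no annotated exon, with that of Ldhb, which fell and holds none. Hk3, which also fell, holds 1 match, and Pfkm, Pfkfb3, Slc2a1 and Slc16a1 hold the motif too. Tpi1, Aldoa, Eno1, Pkm and Gapdh are among the 14 and hold none. Capitals mark ACGTG or its reverse complement CACGT. The windows are chr7:46845554-46845803 on the plus strand for Ldha, chrX:106186850-106187099 plus for Pgk1, chr6:82774455-82774704 minus for Hk2, chr19:41911621-41911870 plus for Pgam1 and chr6:142507958-142508207 minus for Ldhb.
Ldha: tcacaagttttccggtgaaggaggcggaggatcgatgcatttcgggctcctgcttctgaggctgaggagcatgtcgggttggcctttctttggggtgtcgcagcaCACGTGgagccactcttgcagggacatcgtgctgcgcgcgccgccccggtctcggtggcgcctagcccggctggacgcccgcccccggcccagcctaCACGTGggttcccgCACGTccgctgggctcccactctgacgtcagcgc
Pgk1: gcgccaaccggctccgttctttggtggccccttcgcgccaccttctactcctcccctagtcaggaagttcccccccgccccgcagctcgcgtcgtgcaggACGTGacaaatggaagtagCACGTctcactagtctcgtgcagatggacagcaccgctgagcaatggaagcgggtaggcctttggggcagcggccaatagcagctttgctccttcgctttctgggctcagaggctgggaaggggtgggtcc
Hk2: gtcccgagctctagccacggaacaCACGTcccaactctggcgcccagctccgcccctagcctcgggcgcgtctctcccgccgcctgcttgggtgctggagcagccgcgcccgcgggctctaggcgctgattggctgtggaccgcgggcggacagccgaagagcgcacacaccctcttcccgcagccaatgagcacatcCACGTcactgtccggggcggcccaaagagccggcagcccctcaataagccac
Pgam1: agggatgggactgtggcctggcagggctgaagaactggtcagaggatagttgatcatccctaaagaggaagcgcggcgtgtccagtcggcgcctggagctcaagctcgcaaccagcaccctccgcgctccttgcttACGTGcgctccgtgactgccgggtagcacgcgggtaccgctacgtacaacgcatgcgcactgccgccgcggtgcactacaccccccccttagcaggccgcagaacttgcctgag
Ldhb: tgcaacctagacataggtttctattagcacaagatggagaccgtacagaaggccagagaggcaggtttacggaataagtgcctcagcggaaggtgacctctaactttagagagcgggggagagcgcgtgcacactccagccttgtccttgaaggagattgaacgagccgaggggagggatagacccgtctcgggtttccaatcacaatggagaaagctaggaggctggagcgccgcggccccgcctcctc
Ldha held 5 start positions of the motif over both strands, 4 of them from 2 copies of CACGTG, which reads the same on both strands. Pgk1 and Hk2 held 2 each and Pgam1 held 1. A match describes the letters of the window and no binding was measured here.

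The falls of the minor isoforms ran beside lower markers of other cells. All 11 red pulp macrophage markers and 9 of 10 tested B cell markers (Blk was higher) were lower in Induced libraries. So were 3 of 4 tested monocyte and neutrophil markers. No Induced library had a row for the macrophage marker Mertk or the red cell gene Alas2. Of the macrophage, B cell, and monocyte and neutrophil markers, 10 of 11, 2 of 10 and 2 of 4 passed the filter on low values through the Initial libraries alone. Those could only be called lower. The part of such cells in the falls of Hk3, Pfkfb4, Eno3 and Ldhb was not tested. The balance of rises and falls also depended on the scaling of the libraries. With libraries scaled to Cd3d, Cd3e, Cd3g, Cd247 and Trdc, the median of all genes moved from 0.03 to 0.24, and 67.3% of all called genes were higher in place of 52.9%. Under that scaling 25 of the 31 genes were higher and 4 lower. Slc2a1 (log2 change 0.27, adjusted p = 0.0245), Pdk1 (0.29, adjusted p = 0.0395), Pgd (0.30, adjusted p = 0.0399) and Taldo1 (0.32, adjusted p = 0.00664) were then called higher, with changes close to that shifted median.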

How the data were processed

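The 6 libraries were built with a VAHTS mRNA kit, and the deposited FPKM values came from Cuffdiff, both per the labels' protocols. The submitters' processing notes name CASAVA, HISAT2 2.0.5, Cuffdiff 1.3.0 and 2.2.1, and build mm9. The loci in the files match GENCODE M21 (GRCm38) instead: 91.1% of 26669 identifiers lie inside the listed span. The deposited tables list no gene at 0, so a gene without a row was taken as 0. Counts were not used, and 45.0 to 49.5% of low values of genes with 1 transcript lay within 0.15 of a whole fragment, so the depths are rough.

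Tests of log2(FPKM + 1) used limma 3.58.1 under R 4.3.3 (mean-variance trend, robust, two-sided, no block), after a filter at FPKM 1 in 3 libraries. The test was also run on simulated data with far fewer changed genes than were called here, so that run does not cover data changed this widely. By their titles the libraries are paired, since each of the mice A, B and C gave 1 library to either group. Deviations from the group means correlated at 0.0393, 0.0307 and 0.131 for A, B and C, and at -0.132 to 0.0988 between different mice. Copies were searched with blastn 2.17.0. Alternatives were other pseudocounts, filters, scalings, a mouse block, an ordinary moderated test, leaving out genes of other cell types and leaving out each library.

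The members, lists and tests were chosen with earlier results of these data known. The report names every member, with values in each library for those changed at least 2-fold and the most abundant of each step, and the largest rise and fall of each other list.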

Additional observations from a re-analysis of the deposited data

How the results depend on the processing

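Across 520 recomputed changes of the 31 tested genes, 507 kept their side of the threshold and their direction, 0 lost a call and 5 gained one: Slc2a1, Pdk1, Pgd and Taldo1 with scaling to the CD3 chains and Trdc, and Slc16a1 without Induced library C. The other 8 changed sign without passing the test in either setting. Slc2a1 (0.05) became -0.0173 with TMM-like scaling, -0.0201 after quantile normalization, -0.0383 without Initial library B and -0.00145 without Induced library C. Its range on leaving out 1 library was -0.0383 to 0.103. Pfkfb3 (-0.07) became 0.00545 after quantile normalization and 0.11 with CD3 and Trdc scaling, which gave 0.0469 for Slc16a1 (-0.17). Pgd (0.07) became -0.024 without Induced library C, the low end of a range that reached 0.139. The 21 rises were 20 with the filter at FPKM 5, since Pfkm was not tested there. The 4 falls were 2 with that filter, since Hk3 and Pfkfb4 were not tested. Settings that left a gene untested are not among the 520, so such calls do not count as lost. Leaving out 1 library gave 21 rises and 3 to 5 falls. The 3 arose because Hk3 leaves the filter without any 1 Initial library, and the 5 because Slc16a1 was called lower without Induced library C. With the mouse as a replicate block, 7943 genes changed in place of 7931, and the block changed no call of the 31 genes. Over all alternatives the number of changed genes ran from 6175 to 9189. The log2 ratio of Hk2 to Hk1 turned from 0.56 to -0.058, and that of Aldoa to Aldoc from -0.79 to 0.39, with a pseudocount of 5, which weighs on genes of a few FPKM. For the same reason the change of Hk3 was -3.05 with a pseudocount of 0.1 and -0.62 with 5. With 3 libraries a group, no exact test of a single ratio could pass. Genes under 1 FPKM such as Eno2 and Rpia rest on few fragments.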

Other observations

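Genes that lead sugars into or out of glycolysis at its sides moved in both directions. Of 27 such genes 23 were tested, 10 rose, 6 fell and 7 did not pass, with a median change of 0.16 on the log2(FPKM + 1) scale. Over all genes tested 37.3% were higher and 33.1% lower. Galk1, galactokinase, had the largest rise, from 14.9 ± 1.13 to 52.2 ± 5.11 FPKM (SD, n = 3 in each group, limma adjusted p = 1.6e-06 over all genes). Gpd1, the cytosolic glycerol 3-phosphate dehydrogenase, had the largest fall, from 1.98 ± 0.330 FPKM to no row, taken as 0, in all Induced libraries, and passed the filter through the Initial group alone. The following genes were picked after their values were seen. Galt, which follows Galk1 in galactose use, fell from 21.2 ± 1.77 to 15.0 ± 0.313 FPKM (limma adjusted p = 0.000921). Among the glycogen genes, the synthase gene Gys1 rose (4.72 ± 0.163 to 8.59 ± 0.441 FPKM) and the branching enzyme gene Gbe1 fell (25.0 ± 1.41 to 12.0 ± 2.32 FPKM). The phosphorylase isoforms parted, with Pygb higher (29.1 ± 1.60 to 42.0 ± 0.693 FPKM) and Pygl lower (8.66 ± 1.0 to 2.57 ± 0.733 FPKM). The summed levels of B cell, red pulp macrophage and red cell markers were lower in Induced libraries as well, and the part of such cells in these falls was not tested.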
